A study of Mus musculus with 104 samples.

Results

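The 9 genes described here encode the D-type cyclins, the kinases and the inhibitors that govern entry into the cell cycle: Ccnd1, Ccnd2, Ccnd3, Cdk4, Cdk5, Cdk5r1, Cdkn1a, Cdkn1b and Rb1. They were taken by name from the 45808 gene rows of the table, and all 9 passed the expression filter that 9113 genes passed (a pooled level of at least 10 CPM over all libraries, and a count in at least 25% of the libraries of either group). CPM is the number of counts per 1000000 gene counts of a library or group. Patch pipettes drew the content of single neurons out of mouse substantia nigra slices, and full-length cDNA was sequenced from each. By title, 38 libraries are experiment and 66 are control, and every one is labelled a dopaminergic neuron. The study built fluorescent reporters of Lewy pathology, and its design text describes mice under tribromoethanol and the picking of neurons with α-Syn-6H-EGFP inclusions. The labels state neither which neurons served as control nor the genotype, strain, age or reporter treatment of either group. The set was chosen by the measured experiment and control levels of Ccnd1 in earlier results of these data, and its relatives were added by name, so the contrast between groups is a description.

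D-type cyclins bind Cdk4 or its relative Cdk6 in G1 and start the phosphorylation of the retinoblastoma protein (Rb1), which otherwise holds E2F transcription factors inactive. The Cip/Kip proteins p21 (Cdkn1a) and p27 (Cdkn1b) restrain the cyclin-dependent kinases, and Cdkn1a is a classic target of p53. Neurons are postmitotic and keep this machinery in check, and cell-cycle proteins have been studied in neurons under stress. Cdk5 stands apart: it is activated by p35 (Cdk5r1) rather than by a classical cyclin, is most active in neurons, and acts on the cytoskeleton and synapse.

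No label ties a library to an animal, so each group was treated as 1 sample and no test between groups was made. Each interval reflects the counting of reads alone, and neurons of 1 group spread far more widely. Libraries held 116567 to 3094036 gene counts in experiment and 153770 to 2577694 in control, with medians of 7354 and 8548 genes with a count. Pan-neuronal markers were present in every library, with summed levels of 4689 to 15683 CPM in experiment and 7268 to 17715 CPM in control, and summed dopaminergic markers ranged from 937 to 27721 and from 2098 to 34320 CPM. By the 1.5-fold rule given below, 3 of 10 dopaminergic markers (Th, Foxa2 and Lmx1b) were lower in experiment and 1 (Aldh1a1) higher. Of all expressed genes 11% were lower and 7.77% higher. The libraries form 2 title sets, split where the control titles change letter case, and 7 runs of consecutive records, each an experiment run with any controls that follow; the last run holds 3 experiment libraries and no control. The labels call neither a batch.

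Of the 9 genes, 4 stood at least 1.5-fold higher in experiment by both the pooled CPM and the mean of the library CPM, and 0 stood 1.5-fold lower. By the same rule 7.77% of all expressed genes were higher and 11% lower. The 4 were Ccnd1, Ccnd2, Cdk4 and Cdkn1b. Ccnd1 and Ccnd2 met the 25% part of the expression filter only through experiment, the group where they were higher. A count was seen in 36.8% and 52.6% of experiment libraries, and in 24.2% of control libraries for both. Their pooled control levels were 2.62 and 8.65 CPM, under the 10 CPM asked of all libraries together. The set was chosen by the measured levels of Ccnd1, so the place of Ccnd1 in these counts was fixed beforehand. The shares of all expressed genes are therefore given as background and not as a test of the set. In title set 1 the higher genes numbered 5 (9.69% of all expressed genes there), with Cdkn1a added, and in title set 2 they numbered 3 (14.6%), without Cdkn1b. Ccnd1, Ccnd2 and Cdk4 met the rule overall and in each set, as did 2.37% of all expressed genes; 0 of the 9 were lower in all 3 views, against 4.42%. The median log2 ratio of the 9 genes was 0.38, and that of all expressed genes -0.03.

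**Figure D1:**
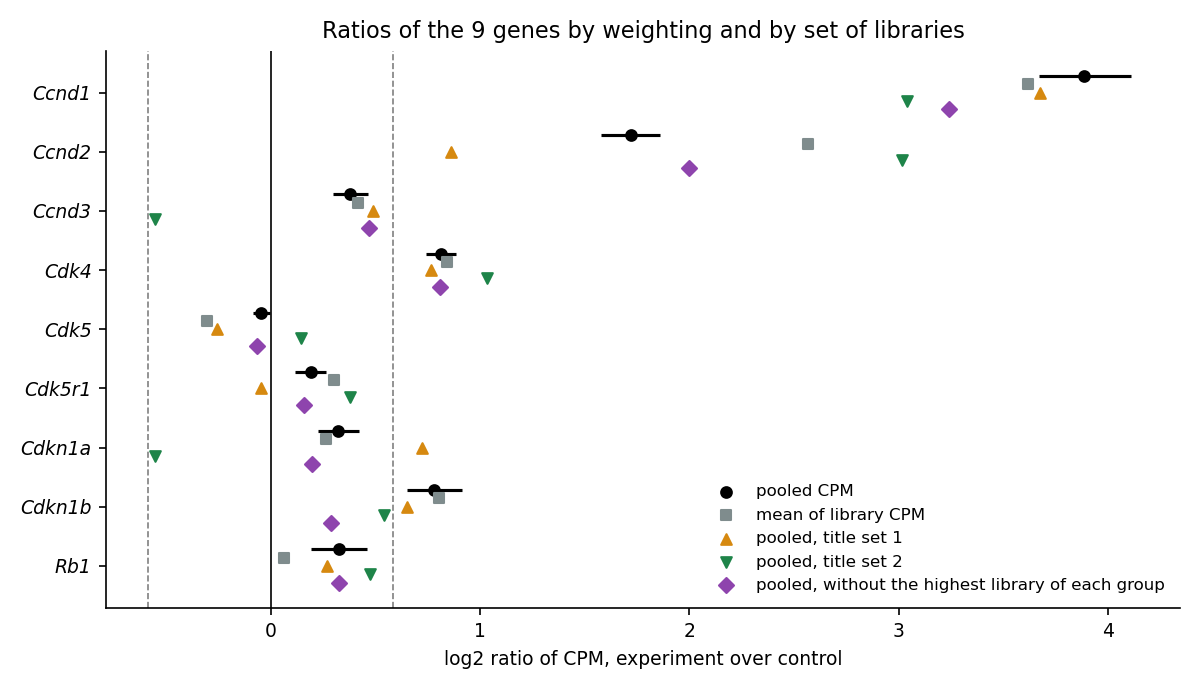
Log2 ratio of CPM, experiment over control, for each gene (rows), by weighting and by set of libraries. Black bars are exact binomial 95% intervals of the pooled ratio (counting error only), and dashed lines mark 1.5-fold. All 5 values of Ccnd1, Ccnd2 and Cdk4 lie to the right of 1.5-fold, while those of Ccnd3, Cdk5, Cdk5r1 and Cdkn1a fall on both sides of 0.

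Promoter sequence was read from RefSeq windows of 250 bases before to 50 after a start (GRCm38.p6), which held 4 of the 9 genes: Ccnd3, Cdk4, Cdkn1a and Cdkn1b. The first sequence is shown because Cdk4 was higher in experiment in each record run with at least 3 libraries of each group, and its capitals mark CACGTG, the E-box bound by MYC and related factors. The second is the upstream of 2 Cdkn1a windows, shown beside the p53 target genes given later, and its capitals mark a match to the 20-base p53 consensus with 1 mismatch.

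Cdk4, chr10:127063285-127063584, plus strand: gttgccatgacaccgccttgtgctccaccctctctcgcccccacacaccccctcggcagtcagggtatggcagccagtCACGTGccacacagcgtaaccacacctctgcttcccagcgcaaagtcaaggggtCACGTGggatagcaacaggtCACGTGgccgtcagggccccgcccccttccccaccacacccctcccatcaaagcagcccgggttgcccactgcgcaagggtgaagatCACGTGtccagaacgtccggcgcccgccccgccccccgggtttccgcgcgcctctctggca
Cdkn1a, chr17:29090729-29091028, plus strand: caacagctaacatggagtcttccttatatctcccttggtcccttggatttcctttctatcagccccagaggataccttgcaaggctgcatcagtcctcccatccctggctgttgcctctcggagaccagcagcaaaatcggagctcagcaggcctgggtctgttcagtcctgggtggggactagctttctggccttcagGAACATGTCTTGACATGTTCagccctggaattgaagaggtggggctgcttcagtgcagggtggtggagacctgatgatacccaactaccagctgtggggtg

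The Cdk4 window held CACGTG 4 times, a word that reads the same on both strands. Of 32851 windows of this length, 7.15% held it at least once and 8 held it 4 times or more. The p53 consensus is its own reverse complement, so 1 search covers both strands, and with at most 1 mismatch it was found in 29 windows, or 0.0883%. The E2F words TTTCCCGC, TTTGGCGC and TTTCGCGC, searched on both strands, were in none of the 6 windows of these genes and in 1.84% of all windows.

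Ccnd1 encodes cyclin D1 (GRCm38, chromosome 7, 144929931 to 144939925, minus strand). Its lowest, median and highest values were 0, 0 and 599 CPM in experiment and 0, 0 and 25.2 CPM in control. Counts were seen in 14 of the 38 experiment neurons and 16 of the 66 controls, so most neurons of both groups showed none, and the groups overlapped. In 8 experiment libraries it exceeded the highest control library. Thinning to 400000 counts per library dropped 4 shallower experiment neurons and 6 controls, and gave 12 of 34 and 15 of 60. The pooled level was 38.8 CPM (95% interval 36.9 to 40.7) against 2.62 (2.27 to 3.02), a ratio of 14.8 (12.7 to 17.2), and 12.3 by the mean of the library CPM. In the libraries that had a count, the median was 29.7 CPM in experiment and 7.92 in control. The shares of neurons with a count were 36.8% and 24.2%. In title set 1 a count was seen in 7 of 21 experiment and 10 of 31 control libraries, which are similar shares. In title set 2 the numbers were 7 of 17 and 6 of 35.

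A few libraries carried the Ccnd1 sum. Experiment libraries 4, 7 and 21 stood at 599, 188 and 107 CPM and held 84.3% of the counts of their group together. The ratio was 7.21 once experiment library 4 was left out, and 9.44 with the top library of both groups removed. Next came experiment libraries 55, 49, 38, 34 and 52, between 29.2 and 82.4 CPM. These 8 libraries came from both title sets and from 5 of the record runs. Within set 1 the pooled levels were 62.4 against 4.89 CPM, and within set 2 they were 11.9 against 1.45 CPM. In record run 2 the 7 experiment libraries had no Ccnd1 count, and 1 of the 14 controls had 7 counts.

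Markers of other cells were high in part of these libraries, and also in libraries with little or no Ccnd1. Experiment libraries 4, 21, 49 and 52 had Th, the dopamine-synthesis enzyme gene, at 2477, 3093, 1304 and 1302 CPM and summed GABAergic markers at 1254, 857, 1616 and 667 CPM. Over all experiment libraries the summed GABAergic markers ranged from 0 to 1750 CPM (median 140), and over all controls from 0 to 1038 (median 51.1). By the 1.5-fold rule 3 of the 4 expressed markers (Gata3, Gad1 and Pvalb) were higher in experiment, beside 7.77% of all expressed genes. Experiment libraries 7 and 55 had Th at 6584 and 6703 CPM and GABAergic markers at 39.7 and 4.90 CPM, with summed glial markers at 773 and 172 CPM. Experiment libraries 52, 34, 49, 4 and 21 had the 2nd, 3rd, 4th, 6th and 7th highest glial marker sum of the 38, between 5653 and 17143 CPM. The highest glial sum, 17839 CPM, was that of experiment library 27, which had no Ccnd1 count. Experiment library 3 had 7632 CPM of glial markers and the highest GABAergic sum, 1750 CPM, with Ccnd1 at 2.21 CPM. Experiment libraries 5 and 2 had GABAergic sums of 981 and 980 CPM, with Ccnd1 at 1.22 and 0 CPM. Summed astrocyte markers ranged from 25.9 to 10039 CPM (median 703) in experiment and 118 to 2787 (median 494) in control. By the same rule 8 of 10 expressed markers were higher, beside the same 7.77%. Of 8 oligodendrocyte precursor markers 2 were expressed, Lhfpl3 lower in experiment and Olig1 within 1.5-fold. The summed precursor markers were nonetheless high in experiment libraries 21, 49, 34 and 4, at 1105, 439, 427 and 203 CPM, where the median of the group was 26.6. They were also high in experiment libraries 5 and 27, at 683 and 551 CPM, which had Ccnd1 at 1.22 and 0 CPM. Expressed were 0 of 10 endothelial and mural markers, with Cldn5 and Slco1a4 at 0 counts in every library. The Ccnd1 ratio was 7.54 after the 25% of libraries highest in glial markers were left out and 8.69 after the 25% highest in GABAergic markers were. Both cuts removed experiment library 4, and without that library alone the ratio was 7.21, so they do not separate these markers from 1 library. The part these cells play in the difference was not tested. Each library was drawn from a single neuron, and RNA of that neuron cannot be told apart from RNA picked up around it.

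Ccnd2 encodes cyclin D2 (chromosome 6, 127125162 to 127152193, minus strand). Values ran from 0 through a median of 1.27 to 482 CPM in experiment, and from 0 through 0 to 137 CPM in control. Reads of it were found in 20 of the 38 experiment neurons and 16 of the 66 controls, and after thinning in 16 of 34 and 12 of 60. The groups overlapped, with 3 experiment libraries above the highest control. Pooled CPM was 28.5 (26.9 to 30.2) against 8.65 (7.99 to 9.34), a ratio of 3.29 (2.99 to 3.63), and the equally weighted ratio was 5.92. As with Ccnd1 over all libraries, the share of neurons with a count was larger in experiment (52.6% against 24.2%). The median of the libraries that had a count was also higher, at 31.8 against 4.38 CPM.

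The Ccnd2 difference turned around in 1 run of records. In run 4, which holds experiments 1 to 7 and controls 1 to 10, it stood at 0.384 CPM in experiment and 39.5 in control, where controls 2, 3, 4 and 9 had 137, 52.4, 95.6 and 97.3 CPM. In run 6 it stood at 62.5 CPM with a count in 8 of 10 experiment libraries, and 0 of the 7 controls had a count. On the pooled log2 scale the ratio was 0.86 for title set 1, 3.02 for title set 2, and 4.50 when run 4 was left out. The highest experiment libraries were 24, 13 and 31, at 482, 299 and 155 CPM. Experiment library 24 was shallow, with 196941 gene counts and 3223 genes with a count.

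Ccnd3 encodes cyclin D3 (chromosome 17, 47505051 to 47599691, plus strand) and was the D-type cyclin found in most neurons. Its lowest, median and highest values were 0, 25.9 and 361 CPM in experiment and 0, 19.1 and 271 CPM in control, with a count in 23 of 38 and 45 of 66 libraries. The pooled ratio was 1.30 (1.23 to 1.38), below 1.5-fold. For title set 1 it was 1.40 and for title set 2 it was 0.683, and experiment was higher in 2 of the 5 record runs that hold at least 3 libraries of each group. No direction is given for Ccnd3. The gene overlaps Bysl on the opposite strand, at 39.9 against 59.1 CPM, and whether counting used strand is not stated.

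**Figure D2:**
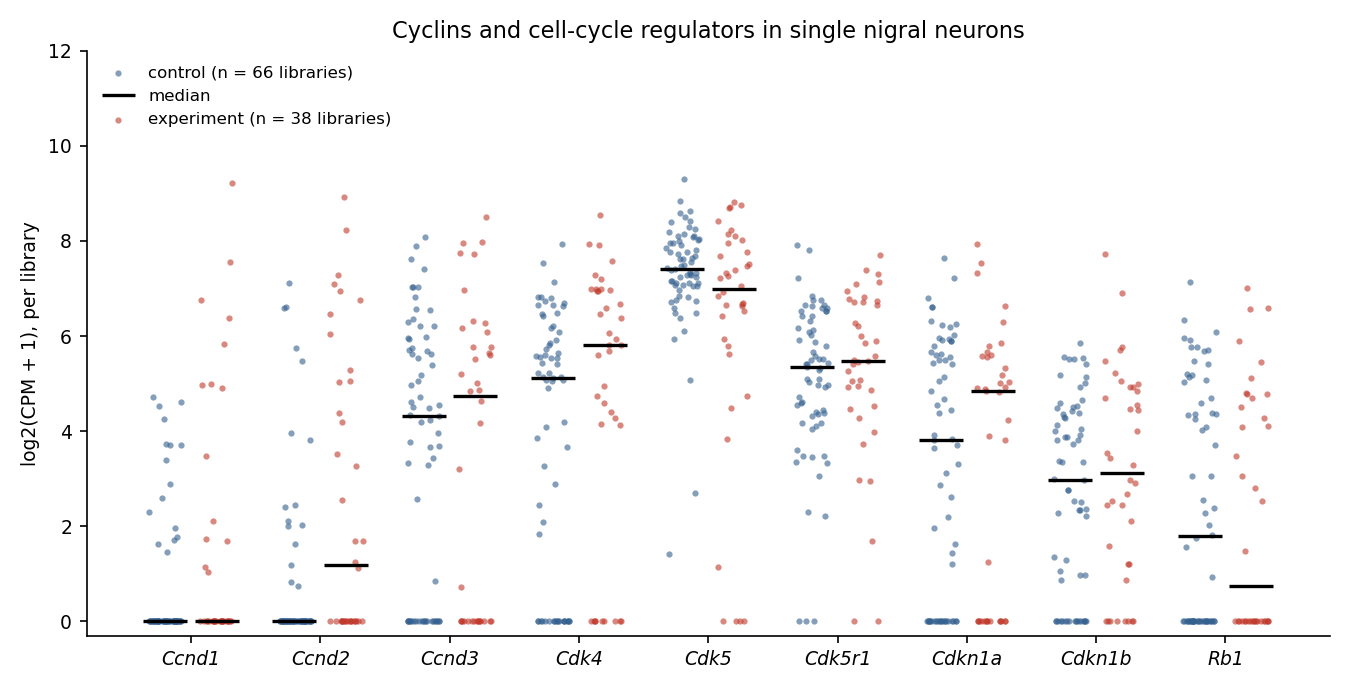
Level of each gene in every library, as log2(CPM + 1), with control in blue (66 libraries) and experiment in red (38 libraries). Black bars are medians. Ccnd1 and Ccnd2 sit at 0 in most control libraries, with scattered experiment libraries up to 599 and 482 CPM, whereas Cdk5 was at 0 in 4 experiment libraries only.

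The D-type cyclins were also compared within each neuron. At 20 CPM or more, Ccnd1 was present in 8 and Ccnd2 in 11 of the 38 experiment libraries, and 3 of these were shared. Among the 66 controls the numbers were 3, 5 and 1. Ccnd2 and Ccnd3 shared 8 experiment libraries, of 11 with Ccnd2 and 20 with Ccnd3, and Ccnd1 and Ccnd3 shared 4 of the 8 with Ccnd1. The 3 highest Ccnd2 libraries had no Ccnd1 count, and the 2 highest Ccnd1 libraries had no Ccnd2 count. None of the 3 cyclins had a count in 7 experiment and 14 control libraries, and all 3 had one in 6 and 5. These counts depend on depth and on the capture of scarce transcripts, and no statement is made on whether the genes exclude each other.

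The summed D-type cyclin signal was 116 CPM in experiment and 48.4 CPM in control. Ccnd1 gave 33.5% of it in experiment and 5.42% in control, Ccnd2 24.6% and 17.9%, and Ccnd3 41.9% and 76.7%. Without experiment library 4, Ccnd1 gave 19.2% in experiment, Ccnd2 29.9% and Ccnd3 50.9%. The median summed level over libraries was 77.1 against 26.4 CPM. For title set 1 the median was 126 against 26.9 CPM, and for title set 2 it was 48.5 against 26 CPM.

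**Figure D3:**
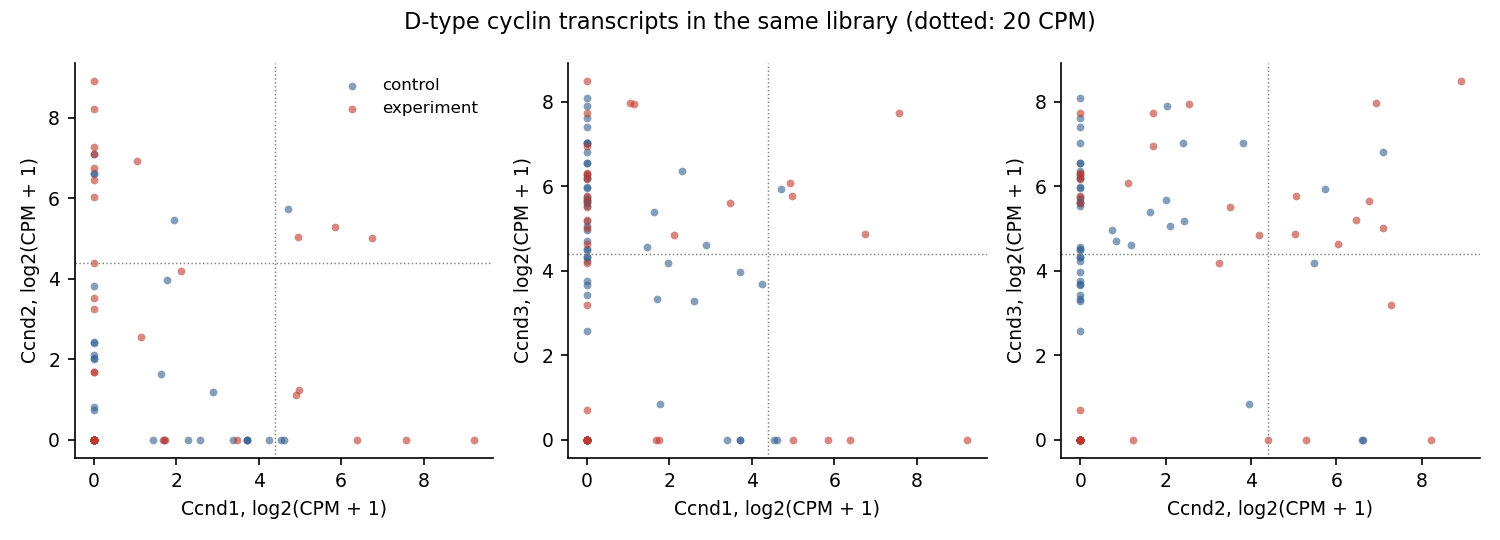
Pairs of D-type cyclin transcripts in the same library, as log2(CPM + 1), with control in blue and experiment in red. Dotted lines mark 20 CPM. In the first panel 3 experiment and 1 control library lie above 20 CPM for both Ccnd1 and Ccnd2, while the highest libraries for each lie along the axes.

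Cdk4 encodes the kinase partner of the D-type cyclins (chromosome 10, 127063534 to 127067920, plus strand). Values ran from 0 through a median of 55.2 to 374 CPM in experiment and from 0 through 33.9 to 243 CPM in control. The groups overlapped almost wholly, with 22 of 38 experiment libraries above the control median and 1 above the control maximum. A count was present in 29 of 38 and 47 of 66 libraries, shares of 76.3% and 71.2%. Pooled CPM was 76.9 (74.3 to 79.7) against 43.7 (42.2 to 45.3), a ratio of 1.76 (1.67 to 1.85), and 1.79 with equal weights.

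The Cdk4 ratio was 1.70 for the first title set and 2.05 for the second, and experiment was higher in each of the 5 record runs with at least 3 libraries of each group, by 1.24 to 2.38 times. Of the 9 genes it was the only one higher in all 5. In title set 1 the median library nevertheless stood at 25.7 CPM in experiment and 32.9 in control, so the difference there came from the upper part of the range. With the top library of both groups removed the ratio was 1.75, and when each library was left out in turn it ran from 1.64 to 1.90. After the 25% of libraries highest in GABAergic markers were left out, the pooled ratio was 1.79 but the equally weighted ratio 1.48, so Cdk4 no longer met the 1.5-fold rule by both. The gene overlaps Tspan31 on the opposite strand, which stood at 75.3 CPM in experiment and 83.4 in control.

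**Figure D4:**
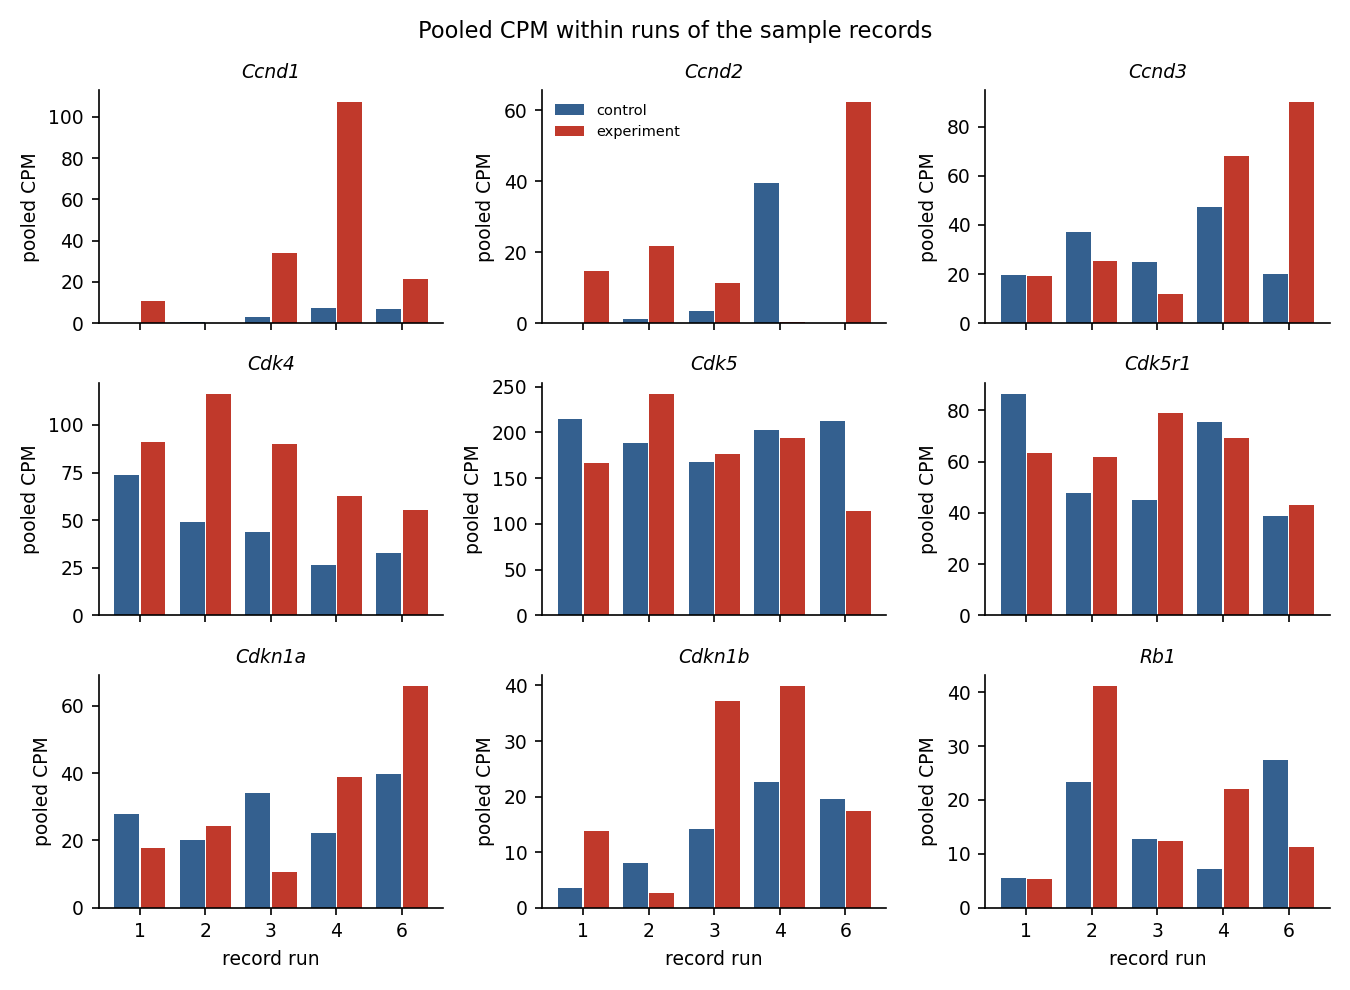
Pooled CPM of each gene in experiment (red) and control (blue) within the 5 record runs that hold at least 3 libraries of each group. Bars start at 0 and have no error bar, since each is a single pooled value. Cdk4 is higher in experiment in every run shown, Ccnd1 and Ccnd2 in 4 of 5, and Ccnd2 is the reverse in run 4.

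Cdkn1b encodes p27 (chromosome 6, 134920401 to 134925513, plus strand). Its lowest, median and highest values were 0, 7.80 and 210 CPM in experiment and 0, 6.87 and 56.5 CPM in control, and the groups overlapped in all but 2 experiment libraries. Pooled CPM was 22.7 against 13.2, a ratio of 1.72 (1.57 to 1.88), and 1.75 with equal weights. Experiment library 7, also second for Ccnd1, held 36% of its group's Cdkn1b counts. With the top library of both groups removed the pooled ratio was 1.22, and without experiment library 7 alone it was 1.14. Leaving out any other single library kept Cdkn1b at 1.5-fold by both weightings. It was also kept, though barely, without record run 4, which holds experiment library 7 (log2 ratio 0.59). Experiment was higher in 3 of the 5 record runs with at least 3 libraries of each group, with ratios of 0.337 in run 2 and 0.886 in run 6. In title set 2 the median library stood at 3.33 CPM in experiment and 4.05 in control.

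Cdkn1a encodes p21 (chromosome 17, 29090976 to 29100727, plus strand). It ran from 0 through a median of 27.6 to 245 CPM in experiment and from 0 through 13.1 to 198 CPM in control, with a count in 24 of 38 and 45 of 66 libraries. The pooled ratio was 1.25 (1.17 to 1.34), with 1.65 for the first title set and 0.683 for the second. Its log2 ratio was -0.995 after the 25% of libraries highest in glial markers were left out, and 0.32 with all libraries, so no direction is given. Over all libraries the Spearman correlation of Cdkn1a with the glial marker sum, after centring within group and title set, was 0.08.

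Rb1 encodes the retinoblastoma protein (chromosome 14, 73183673 to 73325822, minus strand) and was scarce in both groups. Reads were found in 19 of the 38 experiment neurons and 36 of the 66 controls, with medians of 0.890 and 2.45 CPM and maxima of 129 and 141 CPM. The pooled ratio was 1.26 (1.14 to 1.38) and the equally weighted ratio 1.05. Experiment was higher in 2 of 5 record runs.

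Cdk5, the neuronal kinase (chromosome 5, 24418241 to 24423530, minus strand), was the most abundant of the 9 genes. Values ran from 0 through a median of 126 to 453 CPM in experiment and from 1.65 through 170 to 635 CPM in control. Every control library and 34 of the 38 experiment libraries had reads of it. The pooled levels were 181 CPM (176 to 185) and 186 CPM (183 to 189), a ratio of 0.970 (0.943 to 0.998), while the equally weighted ratio was 0.811. Only 14 experiment libraries lay above the control median, and the lower quartiles were 55.8 and 133 CPM. The lower values were thus found in a part of the experiment neurons, and by mean log2(CPM + 1), which weights such libraries most, the difference was -1.12 where that of all expressed genes was -0.38.

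The 4 experiment libraries with no Cdk5 count were numbers 6, 24, 30 and 31, all in title set 1. They held 337571, 196941, 891184 and 612283 gene counts and 4968, 3223, 6718 and 7068 genes with a count, each below the median of their group. Th stood between 4359 and 6616 CPM in them. In title set 2 the medians of Cdk5 were 153 and 163 CPM, and in title set 1 they were 103 and 180 CPM. The ratio of pooled CPM was 0.837 for the first title set and 1.11 for the second, and the difference between the sets was not tested.

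Cdk5r1 encodes p35, the activator of Cdk5 (chromosome 11, 80477023 to 80481184, plus strand). Values ran from 0 through a median of 43.8 to 207 CPM in experiment and from 0 through 39.5 to 240 CPM in control. A count was present in 36 of 38 and 63 of 66 libraries. The pooled ratio was 1.14 (1.09 to 1.20), with 0.970 for the first title set and 1.30 for the second. The groups overlapped over nearly the whole range.

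To compare genes with each other, CPM was divided by the summed exon length in kilobases (GENCODE M21). Cdk5 led with a median of 73.5 CPM per kilobase over all libraries (quartiles 48.1 and 116), and its lower quartile lay above the upper quartile of every other gene. Within control this held too (61.2 against 20 for Cdk4), but within experiment the lower quartile of Cdk5, 25.7, lay below the upper quartile of Cdk4, 38.1. Cdk4 (11.2), Cdk5r1 (9.99), Cdkn1a (4.50), Ccnd3 (2.32), Cdkn1b (1.51) and Rb1 (0.359) followed, and the medians of Ccnd1 and Ccnd2 were 0. Each of these neighbours overlapped the next in its quartiles. Cdk5 led the 9 genes in 24 of the 38 experiment neurons and in 60 of the 66 controls, and Cdk4 led in 5 and 4. By pooled level per kilobase Ccnd1 stood at 8.23 in experiment, above Ccnd3 at 5.51, and at 0.557 in control, below Ccnd3 at 4.24. Without experiment library 4 the order in experiment turned around, with Ccnd1 at 4.02 and Ccnd3 at 5.71.

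**Figure D5:**
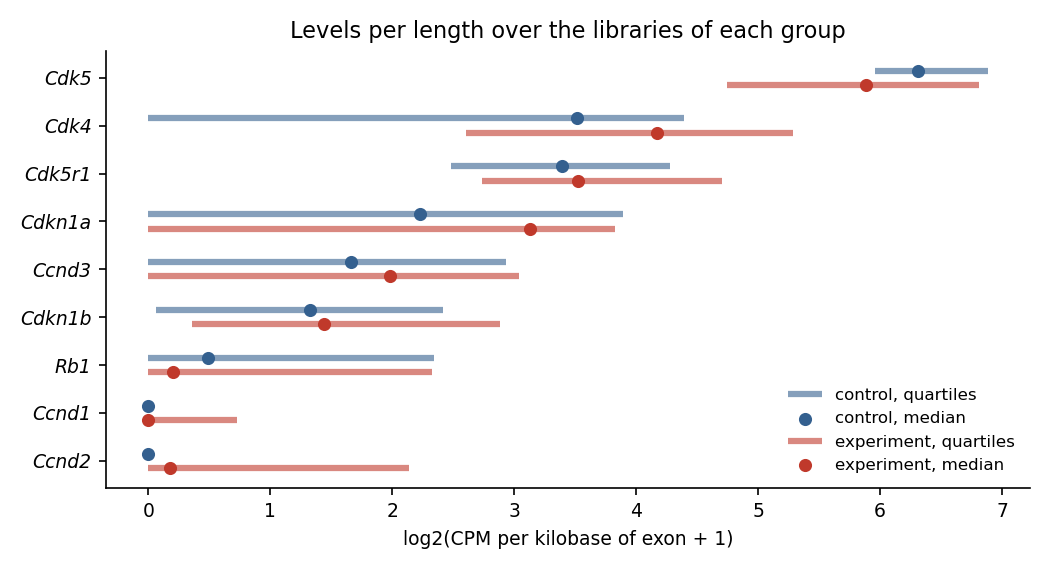
Levels per length, as log2(CPM per kilobase of exon + 1), ordered by the median over all libraries. Points are medians and bars run from the lower to the upper quartile over the 38 experiment (red) and 66 control (blue) libraries. Cdk5 has the highest median in both groups, and its quartiles clear those of the other 8 genes in control but overlap Cdk4 in experiment.

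From neuron to neuron the genes showed only weak relations to each other. Among the 7 genes with a count in at least 52 libraries, the 21 Spearman correlations of log2(CPM + 1), centred within group and title set, ran from -0.09 to 0.20. The highest was that of Cdk5r1 with Rb1 (Pearson 0.26), and Cdk5 with its activator Cdk5r1 gave 0.12. The latter joined unlike values: -0.03 and -0.34 in experiment title sets 1 and 2, and 0.27 and 0.44 in control title sets 1 and 2. Some genes were related to measures of the library: Rb1, Cdkn1a and Cdkn1b correlated with the number of genes with a count at 0.35, 0.29 and 0.28, and Cdk5r1 with the ERCC spike-in share at -0.31. With the gene counts of the library, a measure of depth, the values were -0.05, 0.08, 0.18 and 0.09 for these genes in the same order. Such weak values in sparse counts are given as a description.

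Likeness was also searched among 7464 other expressed genes with a count in at least 52 libraries, by the same Spearman measure over all libraries. Closest to Cdk5 were Tmem91 (0.43), Exosc9 (0.39) and Cept1 (0.38). Closest to Cdk5r1 were Nsg2 (0.42), a neuronal vesicle protein gene, Basp1 (0.41), a growth-cone protein gene, and Zbtb44 (0.41). For Cdk4 they were Vezt (0.43), Ppfia4 (0.42) and Lrrc7 (0.40). These are moderate values at the top of a long ranking.
The leading genes for the others were Dhx40 and Camsap1 after BC048546 for Ccnd3 (0.36 to 0.38), and Apba2, Dffa and Hspbp1 for Cdkn1a (0.39 to 0.43). They were Pafah1b2, Dact3 and Spty2d1 for Cdkn1b (0.38 to 0.44), and Csmd2, Cyfip1 and Cpsf6 for Rb1 (0.40 to 0.44).

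Of 20 further G1 kinases, cyclins and E2F factors 11 were expressed, of which 3 were 1.5-fold higher and 0 lower (7.77% and 11% of all expressed genes), with a median log2 ratio of 0.42. Myc, a growth transcription factor that acts through E-boxes, stood at 24.2 against 6.17 CPM, with ratios of 2.07 and 7.20 in title sets 1 and 2. Myc had a count in 9 of 38 experiment libraries, a smaller share than the 18 of 66 controls. Any link between Myc and Cdk4 was not tested. Ccne1, cyclin E1, stood at 17.2 against 6.83 CPM, with ratios of 2.48 and 2.35 in title sets 1 and 2. Only 6 of the 38 experiment neurons held reads of Ccne1, a smaller share than the 18 of 66 controls. Its experiment sum thus rested on 6 libraries. E2f4, a repressive E2F, had a ratio of 1.58, with 0.865 in set 1 and 2.48 in set 2, and Tfdp1, an E2F partner, 1.48. Detection of E2f4 was likewise rarer in experiment, at 9 of 38 neurons against 30 of 66.

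Of 7 further inhibitors and pocket proteins 2 were expressed, and neither was 1.5-fold apart. Cdkn2d, the p19 inhibitor of Cdk4 and Cdk6, had a count in 37 of 38 and 65 of 66 libraries, at 177 against 170 CPM, and Rbl2, a relative of Rb1, stood at 34.5 against 26.6 CPM. Cdkn2a and Cdkn2b, the senescence-linked inhibitors, had 0 counts in all libraries, which allows up to 3 counts, or 0.0262 CPM, over the 114512794 gene counts.

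Among 13 expressed genes of p53 and its arrest targets, 3 were higher and 0 lower (7.77% and 11% of all expressed genes), with a median log2 ratio of 0.05. Sesn2, a stress-induced regulator of growth signalling, stood at 72.7 against 26.7 CPM, but its ratio was 0.303 for the first title set and 6.66 for the second. Gadd45g, a growth arrest gene, had a ratio of 1.74 (1.13 for the second set) and Ccng2, an atypical cyclin, 2.13. Btg2, an antiproliferative early gene, stood at 138 against 224 CPM. Trp53 itself stood at 41.1 against 34.3 CPM, with ratios of 0.519 and 1.93 in the first and second title sets, and Mdm2, its ubiquitin ligase, at 45.6 against 44 CPM. The named genes of this list thus stood on both sides of 1.

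Of 12 expressed partners and substrates of Cdk5, 1 was higher and 0 lower, against 7.77% and 11% of all expressed genes, and the median log2 ratio was -0.01. The higher gene was Cdk5rap1, which encodes a mitochondrial tRNA-modifying enzyme despite its name, at 22.7 against 8.35 CPM. Dab1, an adaptor of reelin signalling, had a ratio of 1.38, and the substrates Dpysl2, a microtubule regulator, and Pak1, a kinase of the actin cytoskeleton, 0.721 and 0.785. Among 18 cyclins and kinases with roles outside the cycle, 2 were higher (Ccny, at 73.7 against 37.3 CPM, and Cdk13, at 18.8 against 10.9 CPM) and 1 lower (Cdk8 of the Mediator complex, at 9.21 against 15.7 CPM), beside the same background of 7.77% and 11%. For the second title set the ratios of Ccny, Cdk13 and Cdk8 were 1.13, 0.653 and 0.998. Cdk18 had a ratio of 0.658.

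Of the 14 expressed genes of the anaphase-promoting complex, the ubiquitin ligase that removes mitotic cyclins and stays active in neurons, 1 was higher and 1 lower (background 7.77% and 11%). These were Anapc13, with a ratio of 1.81, and Anapc1, with 0.636. Cdc23 and Anapc2 had ratios of 0.668 and 0.677, and the list had a median log2 ratio of -0.07.

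Most genes of replication and mitosis did not pass the expression filter. Of 20 S phase genes 2 were expressed, Pcna, the sliding clamp, at 49.3 against 36.6 CPM with a count in 30 of 38 and 49 of 66 libraries, and Rrm1, a ribonucleotide reductase subunit, at 13.8 against 16.1 CPM. Of 24 genes of G2 and mitosis only Wee1, an inhibitory kinase, was, at 21.2 against 13.1 CPM. The summed S phase level had medians of 114 CPM in experiment and 86.7 in control, and 132 against 113 pooled. The summed G2 and mitosis level had medians of 19.8 CPM in experiment and 28.1 in control, but 44.5 against 38.5 pooled. Mki67, the proliferation marker, had a count in 2 of 38 and 1 of 66 libraries, Top2a in 1 and 2, and Cdk1 in 1 and 1. Experiment library 4, the highest for Ccnd1, had a summed G2 and mitosis level of 0 and a summed S phase level of 261 CPM, the 4th highest of its group. Experiment library 7, the next for Ccnd1, had a summed G2 and mitosis level of 188 CPM, the highest of its group, in which Wee1 gave 249 of 294 counts and Bub1b 43.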

How the data were processed

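RNA drawn by patch pipette from single neurons of mouse substantia nigra was made into cDNA by Smart-seq2, with HyperPlus libraries (labels' protocols). The deposited file is the authors' table of raw counts by gene name. Per the submitters' processing notes, which give no role or order, the tools were STAR 2.5.3a and featureCounts 1.5.3, and the build was mm10. The 92 ERCC rows were kept out of totals.

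Groups came from the titles. Counts were summed per group and divided by summed gene counts (pooled CPM), with exact Poisson 95% intervals on levels and exact binomial intervals on ratios, and the mean of the library CPM was set beside it. Sums under 3 counts were raised to 3 for ratios. A gene was called by size, 1.5-fold by both weightings. No p-values were computed, since no label gives an animal. The members and lists were chosen with earlier results of these data known. All members are named, with up to 4 expressed genes per pathway list, ranked by the smaller of both absolute log2 ratios, and the 3 genes closest to each member found in at least 52 libraries. Cell type markers, Trp53, Mdm2, Cdkn2a, Cdkn2b and the proliferation genes given singly were named after their values were seen. Among 5356 comparisons between libraries, 0 found the same counts throughout. Alternatives used edgeR 4.0.16 (TMM) and DESeq2 1.42.0 size factors. The calculation was tested on simulated Poisson counts with set ratios and no further spread from neuron to neuron, which checks the arithmetic only. Python 3.11.15 and scipy 1.17.1 were used, with GENCODE M21 (GRCm38, the build of mm10) for positions and lengths.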

Additional observations from a re-analysis of the deposited data

How the results depend on the processing

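Ccnd1, Ccnd2, Cdk4 and Cdkn1b stayed above 1 under all 15 alternatives to the pooled CPM, with log2 ratios of 0.89 to 3.92, 0.86 to 4.50, 0.07 to 1.04 and 0.03 to 1.45. Ccnd3, Cdk5, Cdk5r1, Cdkn1a and Rb1 each changed sign in at least 2. The Ccnd1 ratio of 14.8 became 12.3 with equal weights, 1.85 as a ratio of geometric means of CPM + 1, 8.80 per ERCC count, 8.21 in title set 2, 9.71 without experiments 1 to 7 and controls 1 to 10, 9.44 without the highest library of each group, 7.54 and 8.69 after leaving out the 25% of libraries highest in glial and in GABAergic markers, and 7.21 and 12.5 without experiment library 4 and without experiment library 7, both chosen after seeing the data. The number of the 9 genes at least 1.5-fold higher was 2 per ERCC count and 2 at 2-fold, and otherwise 3 to 5, in which Cdk4 gave way to Ccnd3 after leaving out libraries rich in GABAergic markers. Of all expressed genes, 0.889% were higher per ERCC count. In the other settings that kept the filter and the 1.5-fold rule, 4.17% to 14.6% were higher. The number lower was 1 per ERCC count (Cdk5), 1 by mean log2(CPM + 1) (Cdk5) and 1 after leaving out those rich in glial markers (Cdkn1a). In these 3 settings 36.5%, 36.4% and 14.1% of all expressed genes were lower. The median log2 ratio of the 9 genes was -0.37 per ERCC count, where that of all expressed genes was -0.78. By mean log2(CPM + 1) it was 0.24, where that of all was -0.38. It was 0.33 without the highest libraries, where that of all was -0.14. The cause of these shifts was not tested. Without an expression filter 27.1% of 24016 genes were higher and 21.4% lower. The order by length was the same for all 9 genes with the longest transcript. The correlation of Cdk5r1 with Rb1 was 0.58 and 0.32 in experiment title set 2 and control title set 1, and -0.041 in control title set 2. Depth limits the genes found in few libraries, Ccnd1 and Ccnd2 first. No paired analysis was possible because the title numbers only name libraries and no test between groups was made.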
